A study of Mus musculus with 6 samples.

Results

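Collagen chains and the enzymes that hydroxylate and cross-link them were followed in NIH3T3, an immortalised fibroblast line derived from mouse embryos, with mutant or wild-type LPAR1, a cell-surface receptor through which the lipid lysophosphatidic acid acts on cells. A gene belongs to the set by its symbol: every collagen chain (Col, a number, a, a number), the lysyl oxidases Lox and Loxl1 to Loxl4, the lysyl hydroxylases Plod1 to Plod3 and the prolyl 4-hydroxylase alpha subunits P4ha1 to P4ha3. This gave 52 of the 18193 genes on the array, 42 of them chains and 10 enzymes. Loxl2 was paired only with 2 probe sets shared with another gene, at intensities of 7.07 to 18.2, and is not among the 52.

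Cells with mutant LPAR1 (3 arrays) were set against cells with wild-type LPAR1 (3 arrays). Each genotype was harvested at 0, 60 and 120 minutes with a single array per harvest, so its replicates are its 3 times. All 6 RNA samples came from the same cell line. No treatment is named in the labels, nor the mutation of the receptor, whether the cells also kept their own receptor, or the number of cultures or clones. The p-values rest on how far these arrays depart from additive effects of genotype and time, with variances shrunk towards those of other genes. Any real difference between genotypes in the change over time counts as error in them. They measure no spread between cultures, and the departures may be technical.

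Collagens are secreted trimers. In the endoplasmic reticulum, prolyl 4-hydroxylases modify prolines that stabilise the triple helix and lysyl hydroxylases modify lysines that later carry cross-links. After secretion and trimming, fibrillar chains assemble into fibrils, and lysyl oxidases oxidise lysines and hydroxylysines so that neighbouring molecules become cross-linked. Fibroblasts are the main source of the type I, III, V and VI collagens of connective tissue, while type IV chains form the network of basement membranes.

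The 10 enzymes and 24 of the 42 chains lay above the intensity filter (an intensity of 39.2, set at the 40th percentile of all genes) and were tested, which makes 34 genes. The other 18 were chains with mean intensities of 4.73 to 36.5, among them Col2a1, Col11a2, Col9a1 and Col10a1, which are known from cartilage, Col4a3 and Col4a4, which are known from kidney, and the chains Col13a1, Col14a1, Col15a1, Col18a1, Col19a1, Col23a1, Col24a1, Col25a1, Col26a1, Col6a4, Col6a5 and Col8a2. The genes just inside the filter were Col22a1, Col9a3 and Col20a1 at levels of 40.6, 47.9 and 50.6, and those just outside were Col25a1, Col11a2 and Col18a1 at 36.2, 33.2 and 32.2. Intensities of different probe sets are not comparable with each other, because each probe set has its own response.

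Median intensities were 34.1 to 37.3 on the 6 arrays. The Actb 5'/3' ratio, a control of RNA and labelling quality, was lower on both 0 minute arrays (0.505 in mutant, 0.579 in wild-type) than on the later ones (0.650 to 0.699), and the corresponding Gapdh ratio was 0.954 to 1.03. The part of RNA quality in the differences over time was not tested. Lpar1 itself read 1496, 1514 and 1438 at 0, 60 and 120 minutes in mutant arrays, against 1335, 1290 and 1289 in wild-type arrays, and was higher in mutant arrays by 0.18 ± 0.045 (log2, SE; adjusted p = 0.0209 by limma). This probe set does not show which allele was present. Of 11 fibroblast markers, 9 were above the filter. The summed intensities of all 11 were 30922 to 31527 in mutant and 31956 to 32550 in wild-type arrays. Fap and Lum were below the filter. Pdgfrb, Ddr2 and Prrx1 were lower in mutant arrays. So were the epithelial marker Cdh1 (log2 difference -0.49, adjusted p = 0.00286), the cartilage factor Sox9 (-0.23, adjusted p = 0.0108) and the muscle actin Acta1 (-0.80, adjusted p = 0.00354). The other fibroblast markers above the filter, Thy1, Pdgfra, Vim, S100a4, Dcn and Twist1, differed by -0.03 to 0.03 and were not called. Nor were the epithelial markers Epcam (0.10), Krt14 (0.03) and Krt5 (0.06), or Sp7 of the cartilage and bone list (-0.05). Above the filter were 4 of 7 epithelial, 1 of 6 endothelial, 2 of 7 leukocyte, 2 of 9 cartilage and bone and 1 of 5 muscle markers. Intensities were summed over every listed marker with a probe set, also those below the filter. For leukocytes these were 6 markers, and for cartilage and bone 7. The epithelial sum was 1418 to 1756 in mutant and 1479 to 1688 in wild-type arrays. In the same order, the endothelial sum was 125 to 136, against 84.5 to 93.8, and the leukocyte sum 270 to 303, against 266 to 293. The cartilage and bone sum was 1320 to 2411, against 1456 to 2963, and the muscle sum 171 to 278, against 167 to 470. The endothelial sum differed through Cdh5, which was higher in mutant arrays (0.97, adjusted p = 0.000246), while Pecam1 read 2.79 to 5.66 on the 6 arrays. The part of these markers in the results was not tested. In RNA from a whole culture, fewer cells that express a gene and less RNA per cell cannot be told apart.

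The first question was whether the collagen genes differed between mutant and wild-type LPAR1. Of the 34 genes tested, 17 were lower and 2 were higher in mutant arrays at an adjusted p of 0.05 (limma, genotype and time as additive terms, Benjamini-Hochberg over all 10916 genes tested). Over all genes tested, 8.95% were lower and 10.4% higher, so 50% of these genes against 8.95% were called lower, and 5.88% against 10.4% were called higher. The median log2 difference was -0.15 over the 34 genes and 0.01 over all genes tested, and 25 of the 34 values were below 0. For 13 of the 34 genes every mutant array lay below every wild-type array, a pattern seen in 7.64% of all genes tested. For 2 of them, Col3a1 and P4ha1, every mutant array lay above, against 9.08% of all genes. These counts are a description of the genes chosen and carry no test of their own. Each of the 17 genes called lower was lower in the mutant array at all 3 times. The calls rest on these same 3 differences, so their shared sign is no separate support. With time left out of the fit, only Col1a1 and Lox kept their call, and leaving out 1 array at a time left 12 to 14 genes lower and the same 2 higher.

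**Figure D1:**
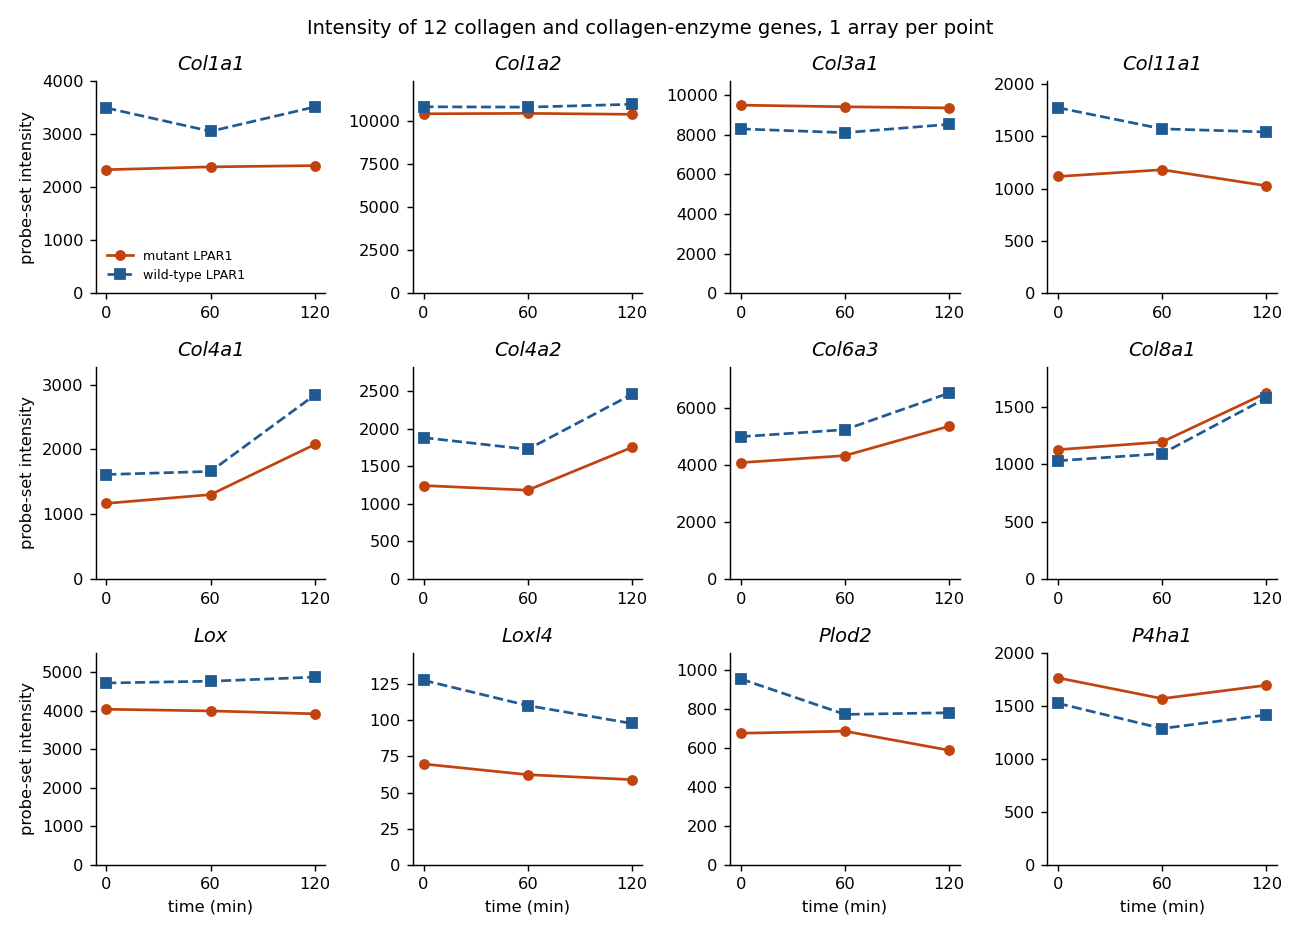
Probe-set intensity (linear axis from 0) against time in minutes for 12 genes, 1 array per point, with mutant LPAR1 as red circles and solid lines and wild-type LPAR1 as blue squares and dashed lines. The mutant line runs below the wild-type line at every time for Col1a1, Col1a2, Col11a1, Col4a1, Col4a2, Col6a3, Lox, Loxl4 and Plod2. It runs above for Col3a1, P4ha1 and Col8a1. Of these genes, Col1a2 and Col8a1 were not called between genotypes. Both lines climb at 120 minutes for Col4a1, Col4a2, Col6a3 and Col8a1.

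Promoter sequences of genes that moved in different ways are shown because they let the regulatory DNA be set beside the values. They are the 250 bases before the annotated start, 5' to 3' on the gene's own strand, from RefSeq (GRCm38.p6), with GC boxes (GGGCGG, on either strand) and CCAAT boxes (on either strand) in capitals. Col11a1 and Loxl4 were lower in mutant arrays, Col6a3 was lower in mutant arrays and higher at 120 minutes, Col3a1 and P4ha1 were higher in mutant arrays, and Col8a1 was higher at 120 minutes.
Col11a1, chr3:114030290-114030539, plus strand: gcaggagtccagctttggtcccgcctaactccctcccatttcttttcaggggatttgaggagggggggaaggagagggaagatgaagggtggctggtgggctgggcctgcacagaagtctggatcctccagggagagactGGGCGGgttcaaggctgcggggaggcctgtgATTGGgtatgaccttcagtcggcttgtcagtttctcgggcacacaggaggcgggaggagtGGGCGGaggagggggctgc
Loxl4, chr19:42612807-42613056, minus strand: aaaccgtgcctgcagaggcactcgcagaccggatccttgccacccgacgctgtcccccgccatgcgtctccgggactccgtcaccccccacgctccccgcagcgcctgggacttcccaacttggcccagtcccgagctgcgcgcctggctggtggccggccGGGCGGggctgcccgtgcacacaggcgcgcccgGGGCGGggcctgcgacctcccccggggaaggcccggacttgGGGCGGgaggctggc
Col6a3, chr1:90843972-90844221, minus strand: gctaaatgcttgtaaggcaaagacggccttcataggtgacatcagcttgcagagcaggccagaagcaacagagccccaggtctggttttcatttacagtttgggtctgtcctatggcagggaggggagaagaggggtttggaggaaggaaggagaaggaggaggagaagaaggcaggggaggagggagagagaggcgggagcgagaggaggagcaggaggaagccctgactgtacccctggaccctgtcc
Col3a1, chr1:45311288-45311537, plus strand: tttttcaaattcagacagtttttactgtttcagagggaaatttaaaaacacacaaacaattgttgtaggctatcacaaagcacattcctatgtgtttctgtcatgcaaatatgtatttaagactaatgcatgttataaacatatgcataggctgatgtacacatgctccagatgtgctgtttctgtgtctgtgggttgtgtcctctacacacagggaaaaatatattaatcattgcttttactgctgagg
P4ha1, chr10:59323046-59323295, plus strand: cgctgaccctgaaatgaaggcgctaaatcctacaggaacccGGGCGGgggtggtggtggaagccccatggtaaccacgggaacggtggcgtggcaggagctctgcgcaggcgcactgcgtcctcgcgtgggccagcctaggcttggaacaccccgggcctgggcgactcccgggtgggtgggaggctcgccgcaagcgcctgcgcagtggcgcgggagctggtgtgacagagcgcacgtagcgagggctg
Col8a1, chr16:57754738-57754987, minus strand: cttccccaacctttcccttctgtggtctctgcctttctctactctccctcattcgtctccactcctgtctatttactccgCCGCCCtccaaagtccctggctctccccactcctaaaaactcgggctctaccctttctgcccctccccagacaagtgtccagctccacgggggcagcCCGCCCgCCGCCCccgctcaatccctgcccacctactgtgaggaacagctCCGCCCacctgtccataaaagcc

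The Loxl4 stretch is 76.0% G and C and holds 3 GC boxes, and that of Col8a1 is 60.8% and holds 4. The Col3a1 stretch is 35.2% G and C and has no GC or CCAAT box but 1 TATAAA. Col6a3 had none of these boxes, P4ha1 had 1 GC box, and Col11a1 had 2 GC boxes and 1 CCAAT box. Col4a1 and Col4a2 lie head to head on opposite strands of chromosome 8. Their annotated starts bound a stretch of 22 bases that lies downstream of both starts, unlike the stretches above, which lie before the start. It is chr8:11312805-11312826, given on the plus strand with its GC box in capitals: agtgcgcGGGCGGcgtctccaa. Windows of 300 bases, from 250 before to 50 after the start, were found for 39 of the 52 genes and for 25 of the 34 tested, in 26 windows. A GC box was present in 20 of these 26 windows (76.9%), against 62.2% of the 11335 windows of all genes tested and 35.7% of all 32851 windows. CCAAT on either strand was in 10 of the 26 (38.5%, against 38.0% and 37.4%), TATAAA in 4 (15.4%, against 7.4% and 13.6%) and the AP-1 site TGANTCA in 1, that of Col6a1 (3.85%, against 5.14% and 7.81%). A CArG box, the element bound by serum response factor, was in 0 of the 26, against 1.28% and 1.63%. The windows of Col4a1 and Col4a2 overlap by 78 bases, so a match there counts for both. These matches describe the letters only.

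Among the 8 fibrillar chains tested, which form the striated fibrils of connective tissue, 4 were lower and 1 was higher in mutant arrays. Over all genes tested, 8.95% were lower and 10.4% higher. Counts by role, here and below, are a description and carry no test of their own. Col1a1, the major chain of type I collagen, read 2334, 2388 and 2411 at 0, 60 and 120 minutes in mutant arrays, against 3501, 3059 and 3520 in wild-type arrays. The mutant arrays lay close together and well below all wild-type arrays, with means of 2378 ± 39.6 and 3360 ± 261 (SD over the 3 times, n = 3 each). Col1a1 was lower by a log2 difference of -0.49 ± 0.050 (SE; limma adjusted p = 0.000192). Its partner chain Col1a2 read 10392, 10417 and 10361 in mutant arrays, against 10799, 10779 and 10944 in wild-type arrays. Here too the mutant arrays were all lower, but by only -0.06 ± 0.033 (adjusted p = 0.228), which did not pass the threshold. Col1a2 ranked 15 to 25 among 45037 probe sets on the 6 arrays, near the array maximum of 12129 to 13065, and the part of this position in the small difference was not tested.

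Col11a1, a chain of the minor fibrils that nucleate type I and II fibrils, read 1115, 1179 and 1026 in mutant arrays, against 1772, 1570 and 1540 in wild-type arrays. The groups did not overlap, and the log2 difference was -0.55 ± 0.056 (adjusted p = 0.000182). Of the type V chains, which regulate fibril diameter, Col5a2 and Col5a3 were lower and Col5a1 was not called. Col5a2 read 6264, 6185 and 6378 in mutant arrays, against 6784, 6927 and 7205 in wild-type arrays, a log2 difference of -0.15 (adjusted p = 0.0171) that was lost without either 60 or either 120 minute array. Col5a3 read 247, 240 and 305 in mutant arrays, against 301, 284 and 412 in wild-type arrays, and its groups overlapped because the 120 minute arrays were highest in both genotypes. Its log2 difference was -0.31 ± 0.064 (adjusted p = 0.00998), and with the mean over both of its probe sets it was 0.03. Col5a1 differed by -0.04 (adjusted p = 0.586).

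Col3a1, the chain of type III collagen of extensible tissues, went the other way. It read 9500, 9419 and 9361 in mutant arrays, against 8300, 8111 and 8531 in wild-type arrays. All mutant arrays were above all wild-type arrays, with means of 9427 ± 70.0 and 8314 ± 210 (SD, n = 3 each) and a log2 difference of 0.18 ± 0.035 (adjusted p = 0.0068). The call was lost without the intensity trend in the shrinkage of variances (adjusted p = 0.0789), as were those of Col5a2, Col6a1 and Col6a2. Col3a1 and Col5a2 are neighbours on chromosome 1 and were called in opposite directions. Col27a1, the remaining fibrillar chain tested, read 39.9 to 65.1 on the 6 arrays and was not called.

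Of the 5 basement membrane and network chains tested, 2 were lower, against 8.95% of all genes tested. Col4a2 read 1243, 1182 and 1751 in mutant arrays, against 1880, 1725 and 2456 in wild-type arrays. At each time the mutant array was lower, although the highest mutant array, that at 120 minutes, was above the 60 minute wild-type array. Its log2 difference was -0.54 ± 0.045 (adjusted p = 5.6e-05). Col4a1, with which Col4a2 forms the trimer of most basement membranes, read 1167, 1302 and 2076 in mutant arrays, against 1612, 1660 and 2839 in wild-type arrays. The order was the same at each time, and the log2 difference was -0.42 ± 0.046 (adjusted p = 0.000267). The neighbouring pair Col4a5 and Col4a6 on the X chromosome, which encodes chains of a more restricted network, differed by 0.02 each and was not called. Col8a1, a short chain of the networks of vessel walls and cornea, read 1128, 1196 and 1623 in mutant arrays, against 1031, 1093 and 1578 in wild-type arrays, a log2 difference of 0.10 (adjusted p = 0.175).

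All 3 type VI chains tested, which assemble into the beaded microfibrils around cells, were lower, against 8.95% of all genes tested. Col7a1, the anchoring fibril chain of skin, was not called. Col6a3 read 4078, 4323 and 5354 in mutant arrays, against 4987, 5232 and 6517 in wild-type arrays, and was the lower at each time. Its log2 difference was -0.28 ± 0.036 (adjusted p = 0.000759). Col6a1 and Col6a2, neighbours on chromosome 10, showed smaller differences with groups that did not overlap. Col6a1 read 3565, 3577 and 3706 in mutant arrays, against 4053, 3818 and 4149 in wild-type arrays (log2 difference -0.15, adjusted p = 0.029). Col6a2 read 4767, 4365 and 4630 in mutant arrays, against 4911, 5062 and 5495 in wild-type arrays (log2 difference -0.17, adjusted p = 0.0318). The call of Col6a1 was lost without either 0 or either 120 minute array, and that of Col6a2 without either 60 or either 120 minute array.

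Of the 6 fibril-associated chains tested, which sit on the surface of fibrils, Col16a1 alone was called, against 8.95% lower and 10.4% higher over all genes. It read 1405, 1192 and 1544 in mutant arrays, against 1649, 1443 and 1744 in wild-type arrays. Both genotypes were lowest at 60 minutes, and the mutant array was lower at each time, with a log2 difference of -0.23 (adjusted p = 0.00834). Col12a1, Col20a1, Col22a1, Col9a2 and Col9a3 read 36.4 to 121 on the 6 arrays and did not pass. Col17a1, the transmembrane collagen of hemidesmosomes, was the only member of its class above the filter, at 50.1, 46.1 and 39.3 in mutant arrays, against 64.6, 59.7 and 70.1 in wild-type arrays. All mutant arrays were below all wild-type arrays (-0.40 ± 0.11, adjusted p = 0.0269), and the call was lost without either 120 minute array or without the 0 minute wild-type array.

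Of the 4 lysyl oxidases tested, 3 were lower, against 8.95% of all genes tested. Lox, the founding enzyme of collagen and elastin cross-linking, read 4035, 3991 and 3916 in mutant arrays, against 4716, 4762 and 4868 in wild-type arrays. Neither group varied much over time, the groups were far apart, and their means were 3981 ± 59.8 and 4782 ± 77.9 (SD, n = 3 each). The log2 difference was -0.26 ± 0.039 (adjusted p = 0.00161). Loxl4 gave the greatest difference in size among the 34 genes. It read 69.7, 62.3 and 58.9 in mutant arrays, against 128, 110 and 97.7 in wild-type arrays, which did not overlap. Its log2 difference was -0.68 ± 0.083 (adjusted p = 0.00058) with the offset of 16, -0.80 with an offset of 1 and -0.46 with an offset of 64. With the mean of its 2 probe sets it was -0.36 (adjusted p = 0.0094). Loxl1, which is known for its part in elastic fibres, read 799.5, 864 and 873 in mutant arrays, against 985, 974 and 1026 in wild-type arrays. The groups were apart (log2 difference -0.23, adjusted p = 0.0114), and the call was lost without either 0 minute array and with the mean of its probe sets (adjusted p = 0.0529). Loxl3 differed by -0.15 (adjusted p = 0.101).

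Of the 3 lysyl hydroxylases, Plod2 and Plod3 were lower, against 8.95% of all genes tested. Plod2, which hydroxylates the telopeptide lysines from which stable cross-links form, read 676, 686 and 588 in mutant arrays, against 955, 773 and 781 in wild-type arrays. The groups did not overlap, and the log2 difference was -0.35 ± 0.066 (adjusted p = 0.00567). Plod3, which also adds sugars to hydroxylysine, read 602, 569 and 624 in mutant arrays, against 761, 666 and 753 in wild-type arrays (-0.27 ± 0.052, adjusted p = 0.00638). Here too all mutant arrays were the lower. Plod1, which acts on lysines of the triple helix, differed by -0.11 (adjusted p = 0.253).

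Of the 3 prolyl 4-hydroxylase alpha subunits, the catalytic parts of the enzyme, 1 was higher, 1 lower and 1 not called. Over all genes tested, 10.4% were higher and 8.95% lower. P4ha1 read 1769, 1572 and 1698 in mutant arrays, against 1528, 1289 and 1418 in wild-type arrays. All mutant arrays were higher, by 0.25 ± 0.044 on the log2 scale (adjusted p = 0.00447), and with the mean of its 2 probe sets the difference was 0.11 (adjusted p = 0.212). P4ha2 read 932.5, 874 and 821.5 in mutant arrays, against 929.8, 847.5 and 841 in wild-type arrays, with a log2 difference of 0.0045 (adjusted p = 0.961). P4ha3 read 70.5, 64.9 and 58.5 in mutant arrays, against 87.3, 83.7 and 86.9 in wild-type arrays, without overlap (-0.34 ± 0.089, adjusted p = 0.0253), and its call was lost without any 1 of the 6 arrays.

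**Figure D2:**
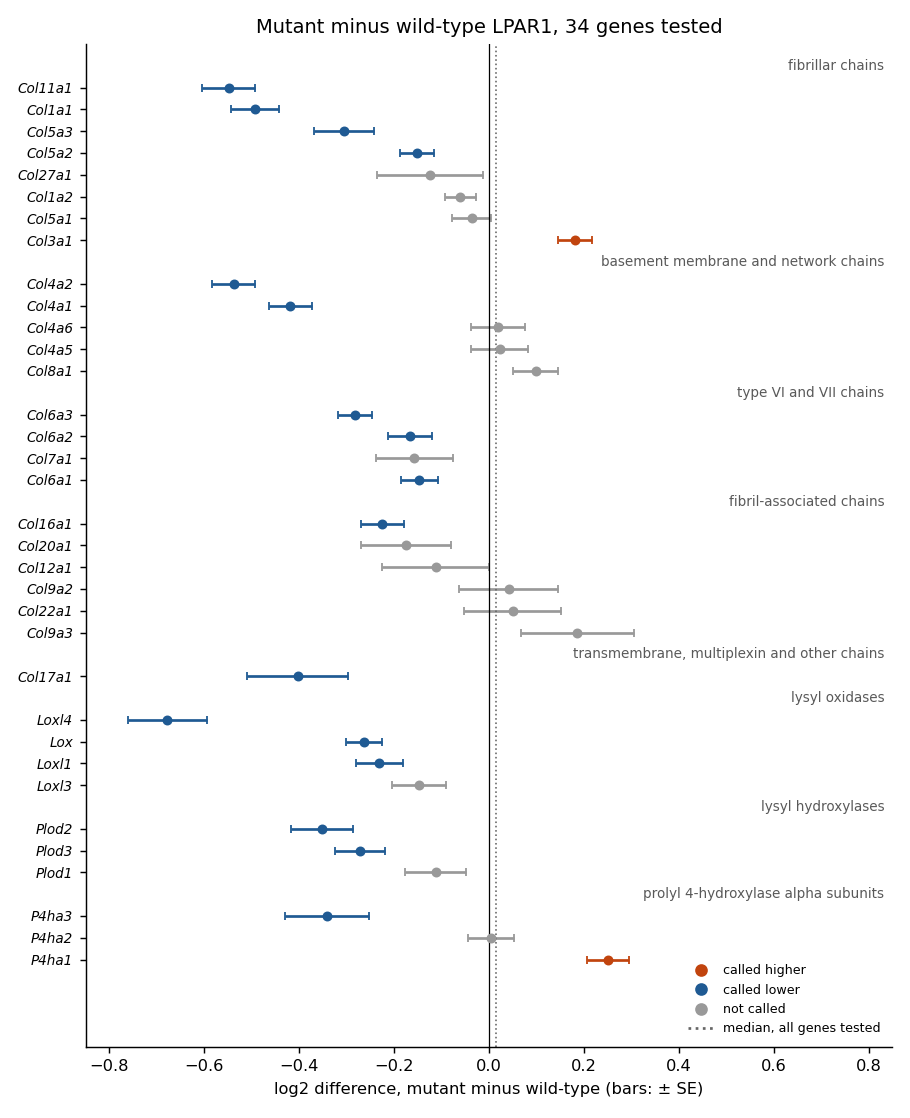
Log2 difference, mutant minus wild-type LPAR1 (x axis; bars are ± SE), for the 34 genes tested, grouped by role down the page, with genes called higher in red, called lower in blue and not called in grey. The dotted line is the median of all 10916 genes tested, 0.01, and 17 blue points lie left of it from -0.15 for Col6a1 to -0.68 for Loxl4, while P4ha1 and Col3a1 are the 2 red points.

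The second question was how the genes changed with time, with both genotypes in 1 fit. The 60 and 120 minute differences share the 0 minute arrays. At 60 minutes 0 of the 34 genes were higher and 4 were lower (11.8%) by limma, against 7.34% higher and 10.7% lower over all genes tested, so the share of lower calls was near the background. At an unadjusted p of 0.05 the counts were 0 higher and 7 lower. The median log2 difference was -0.08, and -0.07 over all genes tested. Col5a1 read 2573 at 0 and 2194 at 60 minutes in mutant arrays, and 2567 and 2242 in wild-type arrays, before 2420 and 2564 at 120 minutes. It was lowest at 60 minutes in both genotypes (-0.21 ± 0.051, adjusted p = 0.0187). Col4a6 read 438, 376 and 407 at 0, 60 and 120 minutes in mutant arrays, against 449, 360 and 399 in wild-type arrays (-0.26 ± 0.069, adjusted p = 0.0275). Col16a1 (-0.21 ± 0.056, adjusted p = 0.0259) and P4ha1 (-0.21 ± 0.054, adjusted p = 0.0272) likewise had their lowest array at 60 minutes in each genotype. All 4 calls were lost without the mutant 0 minute array, the mutant 60 minute array or the wild-type 60 minute array, and without the wild-type 0 minute array only that of Col5a1 remained. All 4 were also lost with untrended shrinkage and with genotype left out of the fit. When a gene was read as the average of its probe sets, Col5a1 gave -0.015 (adjusted p = 0.887), P4ha1 -0.060 (adjusted p = 0.547) and Col4a6 -0.18 (adjusted p = 0.144). Col16a1 has only 1 probe set, so averaging could not change its difference.

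At 120 minutes 6 of the 34 genes were higher (17.6%) and 3 were lower (8.82%), against 16.2% higher and 30.8% lower over all genes tested. The share of higher calls was near the background and that of lower calls was below it. The median log2 difference was 0.004 over the 34 genes and -0.09 over all genes tested. By role, 3 of the 5 network chains, 1 of the 8 fibrillar, 1 of the 4 type VI and VII and 1 of the 6 fibril-associated chains were higher, and 2 of the 3 lysyl hydroxylases and 1 of the 3 prolyl 4-hydroxylases were lower.

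Col4a1, whose values are given above, was highest at 120 minutes in both genotypes, and its log2 difference at 120 minutes was 0.82 ± 0.056 (1.76-fold, adjusted p = 2.71e-06). At 60 minutes it differed by 0.10. Its partner Col4a2 was higher by 0.44 ± 0.055 (1.35-fold, adjusted p = 0.000143), with both 120 minute arrays above the 0 and 60 minute arrays of their genotype. Col8a1 was higher by 0.56 ± 0.057 (1.48-fold, adjusted p = 3.34e-05), and its 120 minute arrays of 1623 in mutant and 1578 in wild-type cells stood above the other 4 arrays, which read 1031 to 1196. Col6a3 rose by 0.39 ± 0.044 (1.31-fold, adjusted p = 7.37e-05), with 5354 in mutant and 6517 in wild-type cells the highest array of each genotype, whereas Col6a1 (0.04) and Col6a2 (0.06) were not called. Col5a3 rose by 0.36 ± 0.078 (1.28-fold, adjusted p = 0.00407).

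Col12a1, a chain on the fibril surface of tendon and ligament, read 64.3, 76.0 and 84.1 at 0, 60 and 120 minutes in mutant arrays, against 63.7, 70.0 and 121 in wild-type arrays. The wild-type array at 120 minutes stood apart. The log2 difference of 0.55 ± 0.14 (1.46-fold, adjusted p = 0.00895) rested on it: without that array it was 0.30 and the adjusted p was 0.114, and without the wild-type 0 minute array the adjusted p was 0.0622. The 3 genes that fell were Plod2 (-0.24 ± 0.080, adjusted p = 0.0328), Plod1 (-0.23 ± 0.078, adjusted p = 0.0337) and P4ha2 (-0.16 ± 0.060, adjusted p = 0.0489). Plod1 read 383, 384 and 332 in mutant arrays, against 447, 378 and 369 in wild-type arrays, so that the mutant arrays were low at 120 minutes and the wild-type arrays from 60 minutes. Without the mutant 120 minute array or the wild-type 0 minute array, all 3 lower calls were lost. Without the wild-type 0 minute array the total was 5, in which Col12a1 was lost as well. The P4ha2 call was lost without any 1 of the 6 arrays, and with genotype left out of the fit only Col4a1 and Col8a1 kept their calls.

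**Figure D3:**
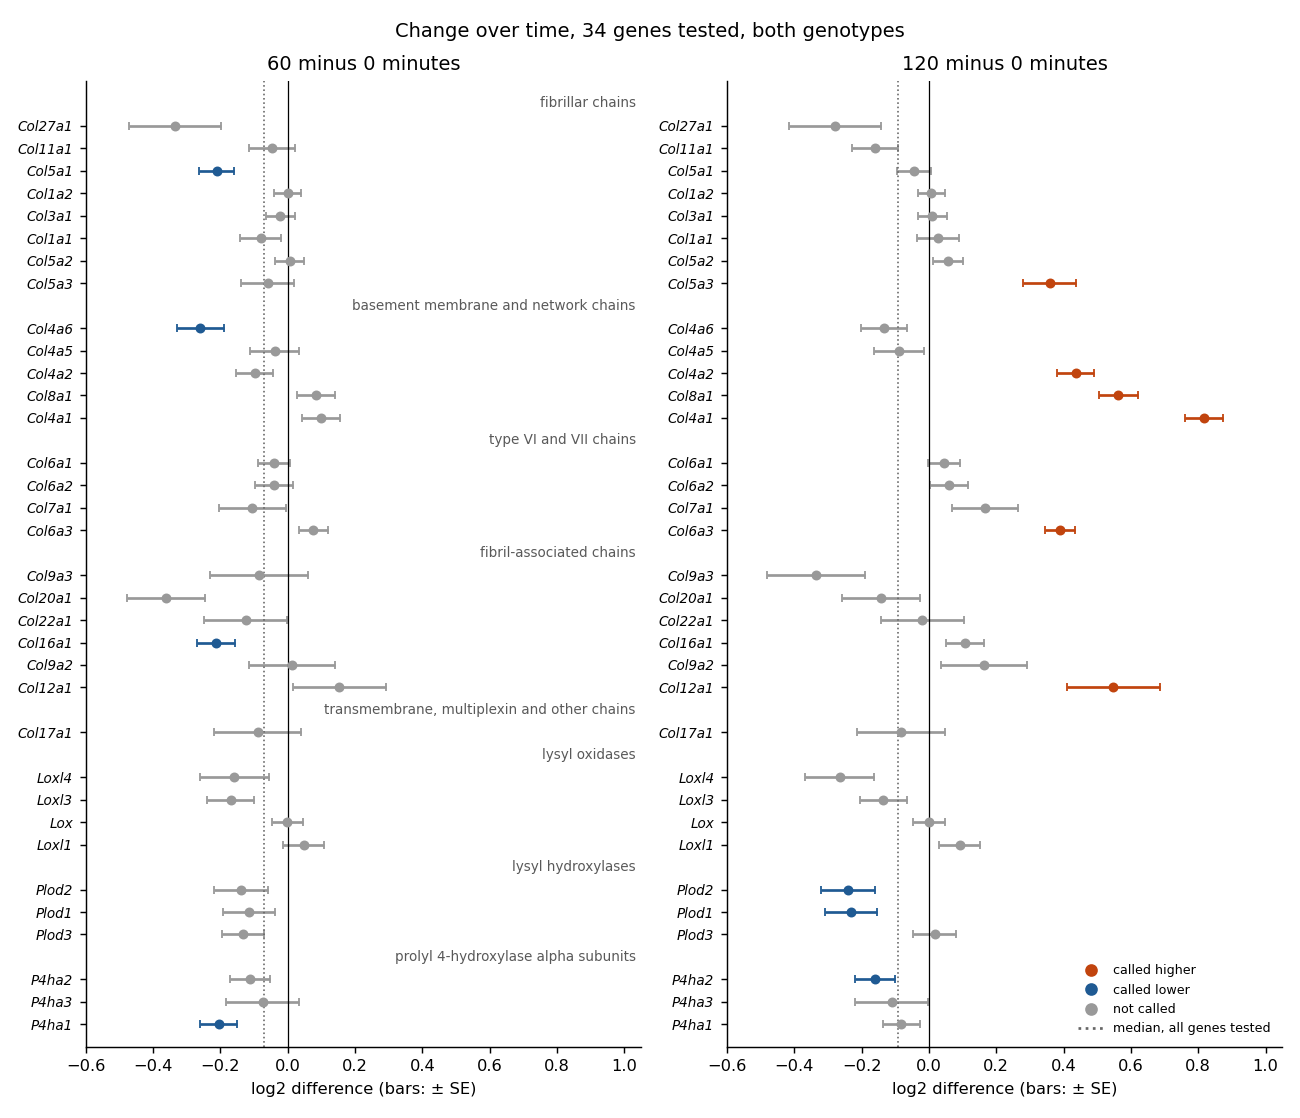
Log2 difference at 60 minutes (left) and at 120 minutes (right) from 0 minutes (x axes; bars are ± SE) for the 34 genes tested, both genotypes in 1 fit, with genes called higher in red, called lower in blue, not called in grey, and the median of all genes tested as a dotted line. The right panel has 6 red points from 0.36 for Col5a3 to 0.82 for Col4a1, and the left panel has none.

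The probe sets used for the chains of type I and III collagen and for Lox were not called at 120 minutes. The log2 difference was 0.0074 ± 0.040 for Col1a2, 0.0091 ± 0.043 for Col3a1, 0.03 ± 0.062 for Col1a1 and 0.0014 ± 0.047 for Lox. The Col1a2 and Col3a1 sets are near the top of the arrays' range, and other sets of Col1a1 (0.31) and Col1a2 (-0.74) were called at this time, as described with the other probe sets. Col4a1, Col4a2, Col6a3 and Col5a3 were called both lower in mutant arrays and higher at 120 minutes, and Plod2 was called lower in both comparisons.

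Whether the change over time differed between the genotypes could not be tested, since there is 1 array for each genotype and time, and the values are given as a description. From 0 to 120 minutes the log2 change was 0.82 in mutant and 0.81 in wild-type arrays for Col4a1, 0.49 and 0.38 for Col4a2, 0.39 and 0.38 for Col6a3, 0.52 and 0.61 for Col8a1, and 0.29 and 0.43 for Col5a3. These 5 genes were thus higher at 120 minutes in each genotype. Col12a1 changed by 0.32 in mutant and 0.78 in wild-type arrays, and Col17a1 by -0.26 in mutant and 0.09 in wild-type arrays. Col4a5 changed by -0.23 in mutant and 0.05 in wild-type arrays. From 0 to 60 minutes the mutant minus wild-type difference of the changes was 0.45 for Col9a3, -0.40 for Col27a1, 0.38 for Col9a2, 0.32 for Plod2 and 0.25 for Col11a1. Of these, Plod2 and Col11a1 had a high wild-type array at 0 minutes, and the other 3 lay near the filter.

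**Figure D4:**
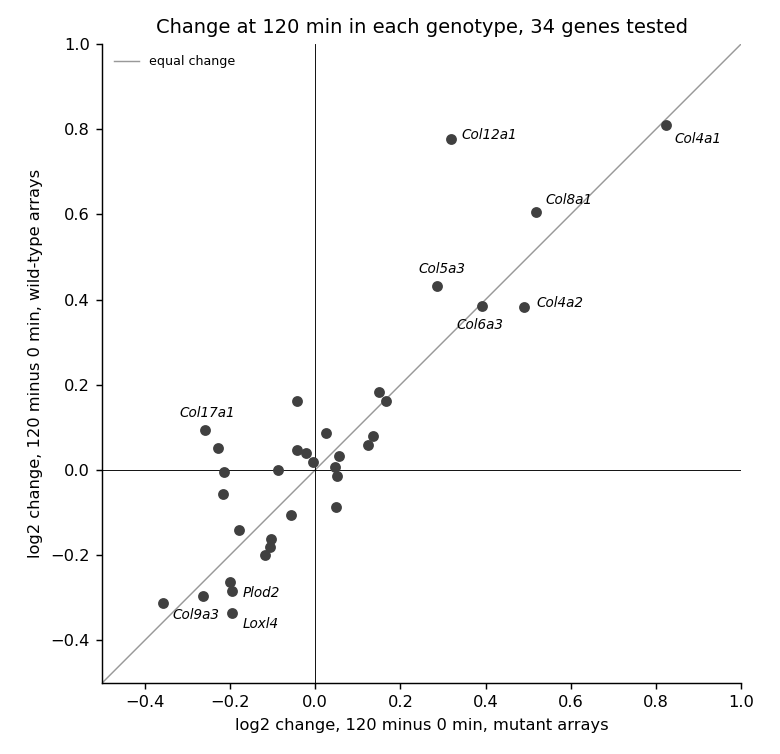
Log2 change from 0 to 120 minutes in mutant arrays (x axis) and in wild-type arrays (y axis), 1 point per gene for the 34 genes tested, with the grey diagonal marking an equal change. Col4a1 lies on the diagonal at 0.82 and 0.81, Col12a1 lies above it at 0.32 and 0.78, and Col17a1 is left of 0 in mutant arrays and above 0 in wild-type arrays.

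The probe set with the highest mean stood for each gene, and 47 other probe sets were paired with the same genes. Of these, 19, in 17 of the tested genes, were above the filter, and they were fitted with all 18911 probe sets above it. Between genotypes 0 of the 19 were higher and 7 were lower by limma, against 6.44% and 7.13% of all probe sets fitted, with 0 and 10 at an unadjusted p of 0.05. The sign was that of the probe set used in 15 and the opposite in 4, those of Col4a5, Col4a6, Col9a3 and P4ha1. The second probe set of P4ha1 differed by -0.04 ± 0.081 (adjusted p = 0.791), where the first gave 0.25. The second probe set of Col1a1 read 1270, 1193 and 1446 in mutant arrays, against 1857, 1991 and 2516 in wild-type arrays (-0.69 ± 0.057, adjusted p = 0.000146), so both sets of this gene had all mutant arrays below all wild-type arrays. For Lox the second set gave -0.41 ± 0.077 (adjusted p = 0.00993), for Col11a1 -0.65 ± 0.064 (adjusted p = 0.000392) and for Plod2 -0.37 ± 0.057 (adjusted p = 0.00395). The second set of Col6a2 was also lower (-0.21 ± 0.043, adjusted p = 0.013). Other sets of called genes had the same sign but did not pass: those of Col4a1 (-0.17, adjusted p = 0.0575), Col3a1 (0.12, adjusted p = 0.207), Col5a2 (-0.13, adjusted p = 0.142), Loxl1 (-0.12, adjusted p = 0.392) and a further one of Lox (-0.20, adjusted p = 0.146). Col1a2 and Col5a1, not called by their brightest sets, were lower by another: the second set of Col1a2 gave -0.18 ± 0.042 (adjusted p = 0.0244) and that of Col5a1 -0.29 ± 0.058 (adjusted p = 0.0132). The dimmer sets of Loxl4 (-0.04) and Col5a3 (0.36) lay below the filter and were not tested.

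Over time, calls differed between sets of the same gene for several chains, among them Col1a1, Col1a2, Col5a1, Col5a2, Col20a1 and Col9a3. A further set of Col1a2 read 1166, 442 and 679 at 0, 60 and 120 minutes in mutant arrays, against 1294, 428 and 788 in wild-type arrays, and fell by 1.47 on the log2 scale at 60 minutes (SE 0.078, adjusted p = 2.62e-06) and by 0.74 at 120 minutes (adjusted p = 9.15e-05), while the brightest set gave 0.00035 and 0.0074. Both genotypes showed the dip. The second set of Col5a1 read 528, 562 and 783 in mutant arrays, against 687, 645 and 969 in wild-type arrays, and was higher at 120 minutes by 0.52 ± 0.071 (adjusted p = 0.000421), where the brightest set gave -0.04. The second set of Col5a2 was higher by 0.33 ± 0.065 at 60 minutes (adjusted p = 0.00781) and by 0.48 ± 0.065 at 120 minutes (adjusted p = 0.000366), where the brightest gave 0.0058 and 0.06. The second set of Col1a1 was higher at 120 minutes by 0.31 ± 0.070 (adjusted p = 0.00641), where the brightest gave 0.03 and was not called. Col20a1 (-0.36, adjusted p = 0.0353) and Col9a3 (-0.42, adjusted p = 0.013) were lower at 120 minutes by another set only. Col4a1 (0.31 ± 0.061, adjusted p = 0.00336) and Col8a1 (0.59 ± 0.072, adjusted p = 0.000226) were higher at 120 minutes by their second sets as well as by the brightest. Likewise, Plod2 was lower at 120 minutes by its second set (-0.25 ± 0.070, adjusted p = 0.0191) as well as by the brightest. In all, 5 of the 19 sets were higher and 4 lower at 120 minutes, against 16.4% and 24.9% of all probe sets, and 1 was higher and 1 lower at 60 minutes, against 7.32% and 8.05%. The transcript regions that these probe sets target were not analysed here.

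**Figure D5:**
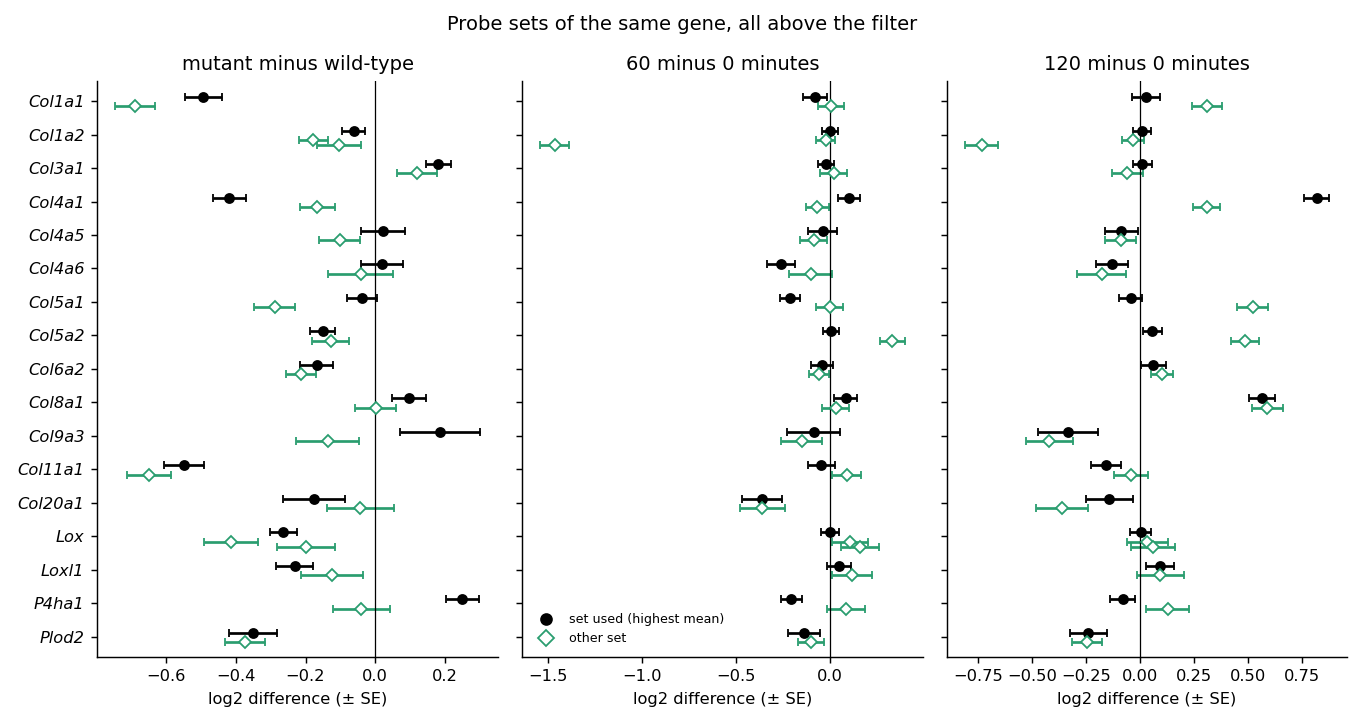
Log2 difference (x axes; bars are ± SE) for mutant minus wild-type LPAR1, 60 minus 0 minutes and 120 minus 0 minutes in the 17 tested genes with another probe set above the filter, the set used as a black circle and the others as open green diamonds. In the first panel all symbols are left of 0 for Col1a1, Col1a2, Col11a1, Col4a1, Col5a1, Col5a2, Col6a2, Col20a1, Lox, Loxl1 and Plod2. A set of Col1a2 stands apart at -1.47 in the second.

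Genes that make, modify, bind, take up or break down collagen were also counted, in 6 lists that do not overlap with the 52 genes. The lists were drawn up with earlier results of these data known, so their counts are a description and carry no test of their own. Of 19 tested members of 23 listed under procollagen processing and chaperones, 10 were lower and 1 was higher in mutant arrays, with a median log2 difference of -0.22, where 8.95% of all genes tested were lower and 10.4% higher. P3h3, a member of the prolyl 3-hydroxylase family, read 172, 166 and 128 in mutant arrays, against 299, 257 and 251 in wild-type arrays, and gave the greatest difference of this list (-0.74 ± 0.075, adjusted p = 0.000182). Serpinh1, the collagen-specific chaperone, and Crtap were picked out after their values were seen. Serpinh1 read 1721, 1854 and 1587 in mutant arrays, against 2196, 2002 and 1878 in wild-type arrays (-0.23 ± 0.052, adjusted p = 0.0135). Colgalt1, which adds galactose to hydroxylysine, was lower by a log2 difference of -0.32 (adjusted p = 0.00222), as was the chaperone Calr (-0.33, adjusted p = 0.00222). Crtap, a partner of prolyl 3-hydroxylase, was the 1 higher member (0.21 ± 0.062, adjusted p = 0.0375). At 60 minutes 3 of the 19 were higher and 2 lower, against 7.34% and 10.7% of all genes tested, and at 120 minutes 4 were higher and 4 lower, against 16.2% and 30.8%. Sec24d, part of the coat that exports procollagen from the endoplasmic reticulum, was higher at 120 minutes by 0.54 ± 0.057 (adjusted p = 4.43e-05) and Pdia3 lower (-0.45 ± 0.057, adjusted p = 0.000146).

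Of 10 tested of 16 fibril-associated proteins, 4 were lower and 2 higher in mutant arrays, against 8.95% lower and 10.4% higher over all genes tested. Prelp, a small leucine-rich proteoglycan, read 64.1, 67.5 and 65.3 in mutant arrays, against 119, 124 and 150 in wild-type arrays (-0.84 ± 0.089, adjusted p = 0.00023). Ogn, another proteoglycan of this family, was higher (0.46 ± 0.060, adjusted p = 0.000788). At 60 minutes 0 were higher and 0 lower by limma (0 and 3 at an unadjusted p of 0.05), and at 120 minutes 0 were higher (0 unadjusted) and 2 lower. Over all genes tested, 7.34% were higher and 10.7% lower at 60 minutes, and 16.2% higher and 30.8% lower at 120 minutes. Of 6 tested of 8 collagen receptors and uptake genes, 3 were lower and 0 higher by limma in mutant arrays (3 and 0 unadjusted), against the same 8.95% and 10.4%. They were Itgb1, the shared beta subunit of the collagen-binding integrins (-0.42 ± 0.047, adjusted p = 0.000338), Itga1 (-0.50, adjusted p = 0.0204) and the receptor kinase Ddr2 (-0.24, adjusted p = 0.00417), which is also 1 of the fibroblast markers. At 60 and at 120 minutes Itgb1 was higher and the uptake receptor Mrc2 lower. These are 1 of 6 in each direction, against the shares of all genes given above for each time.

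Of 8 tested of 11 genes of proline and cofactor supply, 2 were lower in mutant arrays, the copper chaperone Atox1 (-0.32, adjusted p = 0.000901) and the transporter Slc1a5 (-0.30, adjusted p = 0.0183), and 0 were higher by limma (0 unadjusted). Over all genes tested, 8.95% were lower and 10.4% higher. At 120 minutes 1 was higher, the ascorbate transporter Slc23a2 (0.48, adjusted p = 0.000422), and 4 were lower, where 16.2% of all genes tested were higher and 30.8% lower. The lower ones include the amino acid transporters Slc1a4 (-0.67, adjusted p = 5.31e-05) and Slc38a2 (-0.62, adjusted p = 6.23e-06). At 60 minutes 0 were called in either direction by limma (0 higher and 2 lower unadjusted), against 7.34% higher and 10.7% lower over all genes tested. Of 3 tested of 8 collagen-degrading enzymes, Mmp14 was higher in mutant arrays (0.16, adjusted p = 0.0278), and 0 were called at 60 or 120 minutes (0 higher and 1 lower, and 0 higher and 2 lower, unadjusted). The shares of all genes tested given above for each comparison apply to this list and the next. Of 3 tested of 11 procollagen proteases and enhancers, 0 were called between genotypes (0 unadjusted) or at 60 minutes (0 higher and 1 lower unadjusted). Furin was higher at 120 minutes (0.27, adjusted p = 0.0277), as were 16.2% of all genes tested.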

How the data were processed

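RNA samples of NIH3T3 cells, 3 with mutant and 3 with wild-type LPAR1, were measured on 6 Affymetrix arrays. The deposited values are probe-set intensities on a linear scale, made by the authors with PLIER in Affymetrix Power Tools 1.14.3.1, per the submitters' processing notes; background correction and scaling between arrays are not given in the sources used here. Of 45101 probe sets, 64 controls were left out, and 34945 were paired with 1 gene, 932 with several and 9160 with none. From these intensities log2(intensity + 16) was computed. The probe set with the highest mean stood for each gene, and a filter at the 40th percentile of the mean log2 level kept 10916 genes.

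Differences were tested by limma (version 3.58.1, R 4.3.3; genotype and time as additive terms, trended shrinkage, 2 residual and 7.73 prior degrees of freedom, Benjamini-Hochberg over all genes, threshold 0.05). Log2 differences and folds are on the offset scale, which understates those of dim probe sets. Time pairs arrays across genotypes by the labels, and array deviations from their genotype means correlated at 0.912, 0.757 and 0.871 for the same time (0, 60 and 120 minutes). The fit was also run on data simulated from the same additive terms with independent noise. Those data hold no difference between genotypes in the change over time, so that run cannot speak to it. The number of arrays limits the precision. Alternatives were the offset, the filter, quantile normalization, untrended shrinkage, the mean of all probe sets, no time term and leaving out each array.

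Genes were named by listing the members called, by size of difference up to 12 per direction, up to 4 per list, and members of each role. Members, lists and markers were chosen with earlier results of these data known. Promoters are RefSeq's, GRCm38.p6.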

Additional observations from a re-analysis of the deposited data

How the results depend on the processing

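Without the replicate block (time for the genotype comparison, genotype for the time comparisons), members called between genotypes dropped to 2 from 19 (Col1a1 and Lox), at 60 minutes to 0 from 4 and at 120 minutes to 2 from 9 (Col4a1 and Col8a1). Over all genes it left 91 of 2115, 585 of 1964 and 2769 of 5127. Leaving out each array in turn gave 14 to 16 between genotypes, 0 to 5 at 60 minutes and 5 to 10 at 120 minutes, and over all genes 1363 to 2164, 1145 to 2511 and 3674 to 5311. Since time is in the fit, the genotype difference is the same whichever array of a pair is left out. With untrended shrinkage 15 members were called between genotypes, 1 at 60 minutes, none of the 4 above, and 7 at 120 minutes. Over all genes it gave 1402 between genotypes. Under the other settings, members called were 16 to 19 between genotypes, 3 to 4 at 60 minutes and 7 to 13 at 120 minutes. With the mean of all probe sets the genotype difference of Col5a3 reversed to 0.027 (adjusted p = 0.813). Calls kept in every setting were 2 of 19 between genotypes, 0 of 4 at 60 minutes and 2 of 9 at 120 minutes. The cause of these changes was not tested, beyond the fewer arrays or terms of each fit.

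Each genotype and time has 1 array, with no estimate of the spread between cultures. The number of arrays and the position of a probe set between the filter and the array maximum limit what can be seen.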
